A study of Mus musculus with 4 samples.

Results

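The 10 genes described here encode molecules with which macrophages speed or restrain T cells: Cd80, Cd86 and Icosl (ligands of CD28-family receptors), Cd274 and Pdcd1lg2 (the PD-1 ligands PD-L1 and PD-L2), Cd83, Cd69, Slamf1 and Havcr2 (surface regulators), and Ido1, a tryptophan-degrading enzyme. They were chosen by gene symbol, with earlier results of these data known, and are 10 of the 19938 genes measured. Of the 10, 9 reached a floor on at least 1 array, set at the median of all genes, a log2 signal of 7.617. Below it a signal was not shown to be above background. The first 5 are ligands in the strict sense, whereas Havcr2 (TIM-3) and Slamf1 act chiefly as receptors and Ido1 is no surface protein.

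The macrophages were derived from bone marrow of C57BL/6N mice, grown in 10 ng/mL M-CSF and harvested on day 9. M2 cells had been stimulated for 48 h with 20 ng/mL IL-4, and M1 cells for 48 h with 10 ng/mL IFN-γ. Each phenotype was incubated for 24 h with 10 ng/mL IL-1α or with vehicle. The 4 groups, M2 IL-1α, M2 vehicle, M1 IL-1α and M1 vehicle, hold 1 array each, so no standard deviation can be given. The labels do not state whether IL-1α followed the polarising cytokine or overlapped with it, nor whether the cultures came from separate animals. No array of macrophages without IL-4 or IFN-γ is among the 4, so a higher level in one phenotype and a lower level in the other cannot be told apart. All levels given are log2 signals from RMA, a difference is between 2 such signals, and the precision is limited by the 4 arrays.

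T cells need a signal through CD28, engaged by CD80 or CD86, besides the one through their antigen receptor, and PD-1, engaged by PD-L1 or PD-L2, restrains them. Macrophages activated by IFN-γ are known for CD86 and PD-L1, and macrophages activated by IL-4 for PD-L2. IL-4 signals through STAT6 and IL-1 through NF-κB.

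RefSeq promoter windows of GRCm38.p6 (250 bases before and 50 after a gene's start) matched 6 of the 10 genes, Cd80, Cd274, Pdcd1lg2, Icosl, Slamf1 and Havcr2. The sequences below are the 250 bases before the start, all on the + strand, of Pdcd1lg2 and Slamf1, the 2 genes higher in M2, of Cd274, the neighbour of Pdcd1lg2, and of Icosl. They lie at chr19:29410669-29410918 (Pdcd1lg2), chr1:171766882-171767131 (Slamf1), chr19:29367188-29367437 (Cd274) and chr10:78069118-78069367 (Icosl). Capitals mark matches on either strand to a STAT6-type element (TTC and GAA with any 4 bases between them) or to the NF-κB consensus. The consensus is GGGRNNYYCC, where R is A or G, Y is C or T and N is any base. The Icosl match reads so on the strand opposite to the one printed.
Pdcd1lg2: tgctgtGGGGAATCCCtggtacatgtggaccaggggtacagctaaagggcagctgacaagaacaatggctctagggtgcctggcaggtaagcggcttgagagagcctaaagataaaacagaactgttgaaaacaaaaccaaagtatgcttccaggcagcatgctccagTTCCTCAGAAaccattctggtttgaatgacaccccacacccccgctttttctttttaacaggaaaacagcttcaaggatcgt
Slamf1: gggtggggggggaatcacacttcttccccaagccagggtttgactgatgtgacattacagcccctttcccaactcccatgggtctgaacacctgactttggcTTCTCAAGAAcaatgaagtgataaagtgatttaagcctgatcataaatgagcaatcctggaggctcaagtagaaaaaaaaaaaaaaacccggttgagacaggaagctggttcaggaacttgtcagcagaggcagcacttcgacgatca
Cd274: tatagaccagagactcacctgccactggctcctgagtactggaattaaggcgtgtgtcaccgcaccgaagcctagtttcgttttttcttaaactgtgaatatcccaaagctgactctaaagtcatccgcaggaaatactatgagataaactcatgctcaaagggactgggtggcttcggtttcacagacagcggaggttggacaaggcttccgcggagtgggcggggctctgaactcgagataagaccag
Icosl: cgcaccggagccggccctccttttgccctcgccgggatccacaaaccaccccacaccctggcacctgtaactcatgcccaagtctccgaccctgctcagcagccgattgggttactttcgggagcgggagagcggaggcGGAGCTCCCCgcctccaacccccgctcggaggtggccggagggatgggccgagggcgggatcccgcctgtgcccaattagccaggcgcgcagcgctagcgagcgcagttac

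The STAT6-type element stood in 2 of the 6 windows, as TTCCTCAGAA in Pdcd1lg2, 82 to 73 bases before the start, and as TTCTCAAGAA in Slamf1, 148 to 139 bases before it. On both strands, 6.95% of all 32851 windows in the table held such a match. The NF-κB consensus also stood in 2 of the 6, in Icosl and, 244 to 235 bases before the start, in Pdcd1lg2, against 8.46% of all windows. An ISRE-type element (GAAA, any 2 bases and GAAA; 3.44% of all windows) matched 0 of the 6. The palindromic STAT6-type element reads the same on both strands, and no match overlapped another. These are letter matches in a short window and do not show binding.

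The comparison of M2 with M1 macrophages asked how the phenotypes differ in these genes before and with IL-1α. With vehicle, 2 of the 9 genes at the floor, Pdcd1lg2 and Slamf1, exceeded their M1 level by 2-fold or more in M2, and 5 were at least 2-fold lower (Cd69, Cd86, Havcr2, Cd274 and Icosl). Among all 10489 genes tested, 7.03% were higher and 6.83% lower. With IL-1α the same 2 genes were higher and the same 5 lower, against 8.15% higher and 6.06% lower of 10479 genes. The comparisons share no array, but IL-1α itself passed 2-fold in only 0.350% of genes in M2 and 0% in M1. The share of all genes called in both comparisons is not given here, so the overlap has no background beside it. The median of the 9 genes was -1.02 with IL-1α and -1.41 with vehicle, where all genes had medians of 0.03 and 0.01. An additive limma model of phenotype and treatment called 2 of the 9 genes higher and 6 lower in M2, against 33.2% and 29.3% of all 10625 genes. In either direction it called 62.5% of all genes. Its error is the departure from additivity in the 4 arrays, and it measures no spread between cultures. In bulk RNA, fewer cells of a type and less RNA per cell cannot be told apart.

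**Figure D1:**
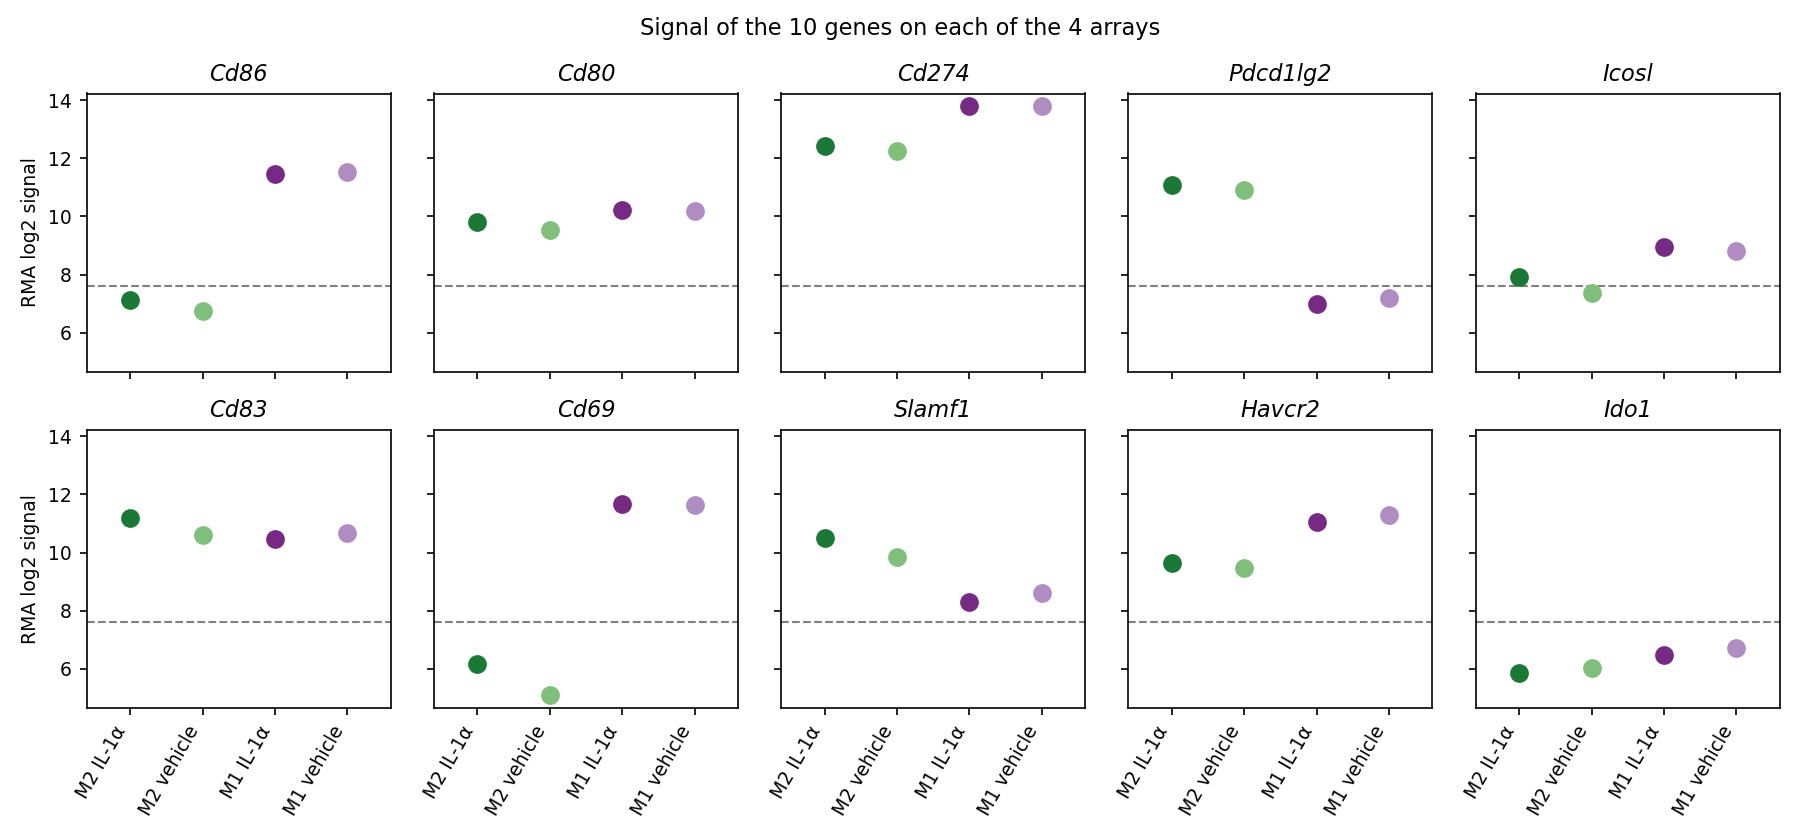
Levels of the 10 genes (RMA log2 signal, y axis) on the 4 arrays (x axis), 1 point per array. The dashed line is the floor of 7.617, and Cd86 and Cd69 lie below it on both M2 arrays, Pdcd1lg2 on both M1 arrays and Ido1 on all 4.

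The CD28 ligands differed in size. Cd86 read 7.13 on the M2 IL-1α array and 6.75 on the M2 vehicle array, against 11.48 on the M1 IL-1α array and 11.53 on the M1 vehicle array. Both M2 arrays were below the floor, so Cd86 was at least 14.5-fold lower in M2 with IL-1α and at least 15.1-fold lower with vehicle, counting from the floor. The limma effect was -4.57 ± 0.10 (SE), with a limma adjusted p of 1.01e-11, and its size is uncertain because it uses the signals below the floor.

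Cd80, the other B7 ligand of CD28, read 9.82 (M2 IL-1α) and 9.52 (M2 vehicle), against 10.23 (M1 IL-1α) and 10.19 (M1 vehicle). It lay above the floor on all 4 arrays, and its M2 arrays were below its M1 arrays by less than 2-fold. The differences were -0.41 with IL-1α and -0.67 with vehicle, and the limma effect of -0.54 ± 0.08 passed the threshold (limma adjusted p = 0.000138). Its 2 probe sets gave -0.69 and -0.66 with vehicle.

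Icosl, which encodes the ligand of the T cell costimulator ICOS, was low on the M2 arrays. It read 7.92 (M2 IL-1α) and 7.38 (M2 vehicle, under the floor), against 8.94 (M1 IL-1α) and 8.79 (M1 vehicle). With IL-1α the difference was -1.02, just past 2-fold, and under loess centring it was -0.99 and no longer past it. With vehicle it was -1.41, at least 2.26-fold lower counting from the floor. The limma effect was -1.22 ± 0.11 (limma adjusted p = 1.67e-06).

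The PD-1 ligands stood in opposite order. Pdcd1lg2 (PD-L2) read 11.08 (M2 IL-1α) and 10.91 (M2 vehicle), against 6.98 (M1 IL-1α) and 7.21 (M1 vehicle). The M1 arrays were below the floor, and Pdcd1lg2 was higher in M2 by at least 11.0-fold with IL-1α and by at least 9.83-fold with vehicle. The limma effect, of uncertain size for the same reason, was 3.90 ± 0.10 (limma adjusted p = 3.13e-11).

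Cd274 (PD-L1) read 12.42 (M2 IL-1α) and 12.25 (M2 vehicle), against 13.80 (M1 IL-1α) and 13.79 (M1 vehicle). All 4 values were far above the floor, so neither phenotype lacked the transcript. The difference was -1.37 with IL-1α (2.59-fold lower in M2) and -1.53 with vehicle (2.89-fold lower), with a limma effect of -1.45 ± 0.05 (limma adjusted p = 2.72e-10). On the M1 arrays Cd274 lay within 1 log2 unit of the highest gene, where a ceiling could hide part of the difference.

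Cd274 and Pdcd1lg2 are adjacent protein-coding genes on chromosome 19. The next gene on each side, chosen after the values of the PD-1 ligands were seen, differed from M1 by less than 2-fold. Plgrkt differed by -0.47 with IL-1α and -0.50 with vehicle, and Ric1 by -0.55 and -0.41. Of the 4 genes in a row, Pdcd1lg2 alone was higher in M2.

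**Figure D2:**
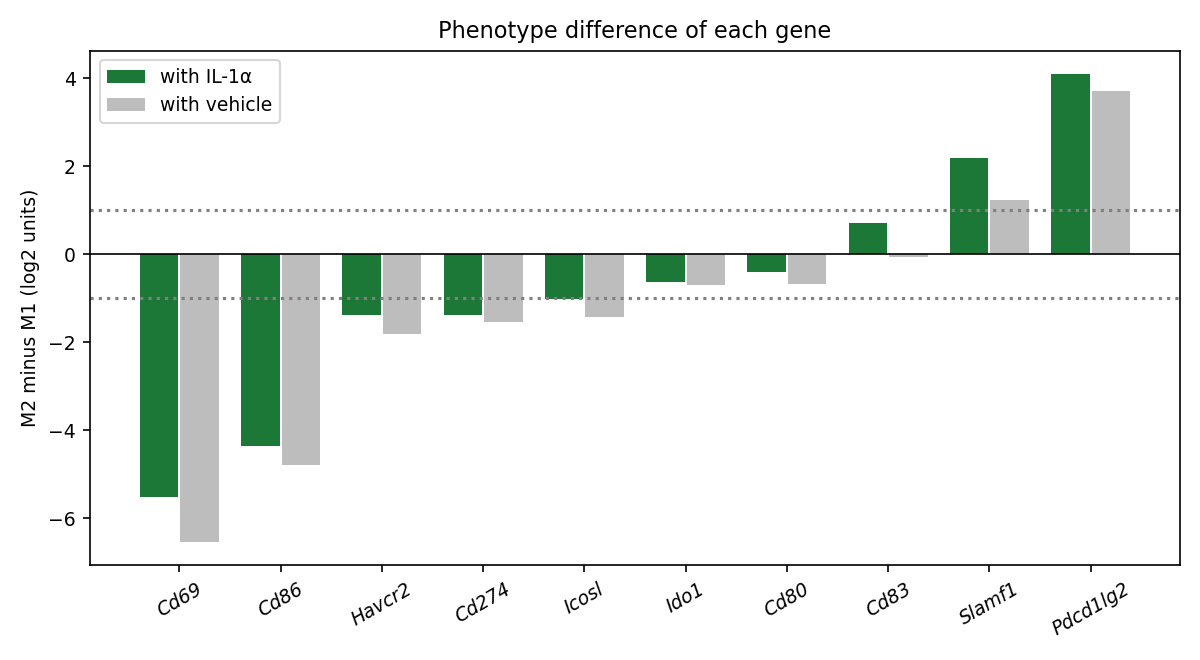
Difference of M2 minus M1 in log2 units (y axis) for each of the 10 genes (x axis), with IL-1α (green bars) and with vehicle (grey bars), 1 array per phenotype in each. Dotted lines mark 2-fold, and the bars run from Cd69 (-5.53 with IL-1α and -6.53 with vehicle) to Pdcd1lg2 (4.10 and 3.71). The lengths for Cd69, Cd86, Pdcd1lg2 and, with vehicle, Icosl include a signal below the floor and are uncertain, and Ido1 was below it on every array.

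Among the surface regulators, Cd69 was lower in M2 by a bound close to that of Cd86. Cd69 encodes a C-type lectin known as an early activation antigen of lymphocytes. It read 6.15 (M2 IL-1α) and 5.09 (M2 vehicle), against 11.68 (M1 IL-1α) and 11.63 (M1 vehicle). Both M2 values were below the floor, so it was at least 16.7-fold lower in M2 with IL-1α and at least 16.1-fold lower with vehicle. The limma effect was -6.03 ± 0.18 (limma adjusted p = 7.14e-11), again of uncertain size. On chromosome 6, and chosen after the values were seen, the next gene Clec2d differed by 0.06 with IL-1α and -0.04 with vehicle, and Clec12a, 2 genes away on the other side, by -1.42 and -1.52.

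Havcr2, which encodes the inhibitory receptor TIM-3, was lower in M2 and above the floor on all 4 arrays. It read 9.65 (M2 IL-1α) and 9.48 (M2 vehicle), against 11.04 (M1 IL-1α) and 11.29 (M1 vehicle). The differences were -1.39 with IL-1α and -1.82 with vehicle, and the limma effect was -1.60 ± 0.09 (limma adjusted p = 3.44e-08).

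Slamf1, a self-binding receptor of the SLAM family, went the other way. It read 10.50 (M2 IL-1α) and 9.85 (M2 vehicle), against 8.31 (M1 IL-1α) and 8.62 (M1 vehicle). It was 4.54-fold higher in M2 with IL-1α and 2.35-fold higher with vehicle, all above the floor. The limma effect was 1.71 ± 0.16 (limma adjusted p = 2.69e-06), but with robust eBayes the limma adjusted p was 0.0863 and the call was lost.

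Cd83, a surface protein known from mature dendritic cells, did not separate the phenotypes with vehicle. It read 11.18 (M2 IL-1α) and 10.62 (M2 vehicle), against 10.48 (M1 IL-1α) and 10.68 (M1 vehicle). The difference was 0.70 with IL-1α and -0.06 with vehicle, and a further quantile normalisation turned the vehicle value to 0.01. The limma effect of 0.32 ± 0.13 missed the threshold (limma adjusted p = 0.0525), ranging from 0.0276 to 0.516 over the alternatives.

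Ido1 was below the floor on every array. Its product starts the breakdown of tryptophan to kynurenine and is known as an IFN-γ-induced brake on T cells. It read 5.85 (M2 IL-1α) and 6.01 (M2 vehicle), against 6.49 (M1 IL-1α) and 6.72 (M1 vehicle). No call was made for it, and its levels do not show whether the transcript was present. Its neighbour Ido2 was below the floor on all 4 arrays too.

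The fixed list of 15 other genes of tryptophan and kynurenine metabolism had 7 genes at the floor with vehicle, of which 1 was higher and 1 was lower in M2. The lower was Kynu, the kynureninase gene, with 7.59 (M2 IL-1α) and 6.52 (M2 vehicle), against 11.29 (M1 IL-1α) and 11.27 (M1 vehicle). The higher was Ahr, encoding the aryl hydrocarbon receptor, for which kynurenine is a known ligand, with 10.19 (M2 IL-1α) and 9.78 (M2 vehicle), against 7.99 (M1 IL-1α) and 7.71 (M1 vehicle). Both M2 values of Kynu were below the floor. Wars, the tryptophanyl-tRNA synthetase gene, differed by -0.86 with IL-1α and -0.98 with vehicle.

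Among 17 other costimulatory and checkpoint genes measured, mostly ligands but also receptors such as Cd40 and Tnfrsf14, 9 were at the floor with vehicle. Of these, 0 were higher and 5 lower in M2 (median -1.48). They were Cd40 (-3.60), Tnfrsf14 (-1.66), Lgals9 (-1.60), outside the naming rule Cd200 (-1.48), and Tnfsf9 (-1.63, with 6.23 on the M2 vehicle array, below the floor). Lgals9 encodes galectin-9, a ligand of TIM-3, and Tnfsf9 the ligand of the costimulator 4-1BB. With IL-1α the list again had 0 higher and 5 lower. Counting from the floor, Tnfsf9 was at least 1.18-fold lower with vehicle and at least 1.02-fold lower with IL-1α, so its calls are uncertain. Of all genes tested, 7.03% were higher and 6.83% lower with vehicle, and 8.15% and 6.06% with IL-1α.

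Of the 10 other SLAM family genes and adaptors, 9 were at the floor with vehicle, with 0 higher and 3 lower in M2. The lower genes were Slamf6 (at least 5.96-fold lower, with M2 vehicle below the floor), Slamf9 (-2.22) and Slamf8 (-1.59), all opposite in sign to Slamf1. In the SLAM gene cluster on chromosome 1, Slamf1 lies near Cd48 (0.51) and Cd84 (0.47), and Slamf6 is the second gene after it. With vehicle, Slamf1 at 1.23 was the only gene of the SLAM list and Slamf1 together that was at least 2-fold higher in M2.

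Of 12 T cell genes for receptors of such ligands, 3 were at the floor on a vehicle array, and 1 of them, Cd28, was higher in M2. Cd28 read 11.22 (M2 IL-1α) and 11.10 (M2 vehicle), against 8.16 (M1 IL-1α) and 8.19 (M1 vehicle). Of the 8 T cell markers measured, Cd4 alone was at the floor on an array, and Cd3d, Cd3e and Cd3g were below it on all 4. The mean of the T cell markers was 6.62 and 6.69 on the M2 IL-1α and M2 vehicle arrays and 6.63 and 6.61 on the M1 IL-1α and M1 vehicle arrays.

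**Figure D3:**
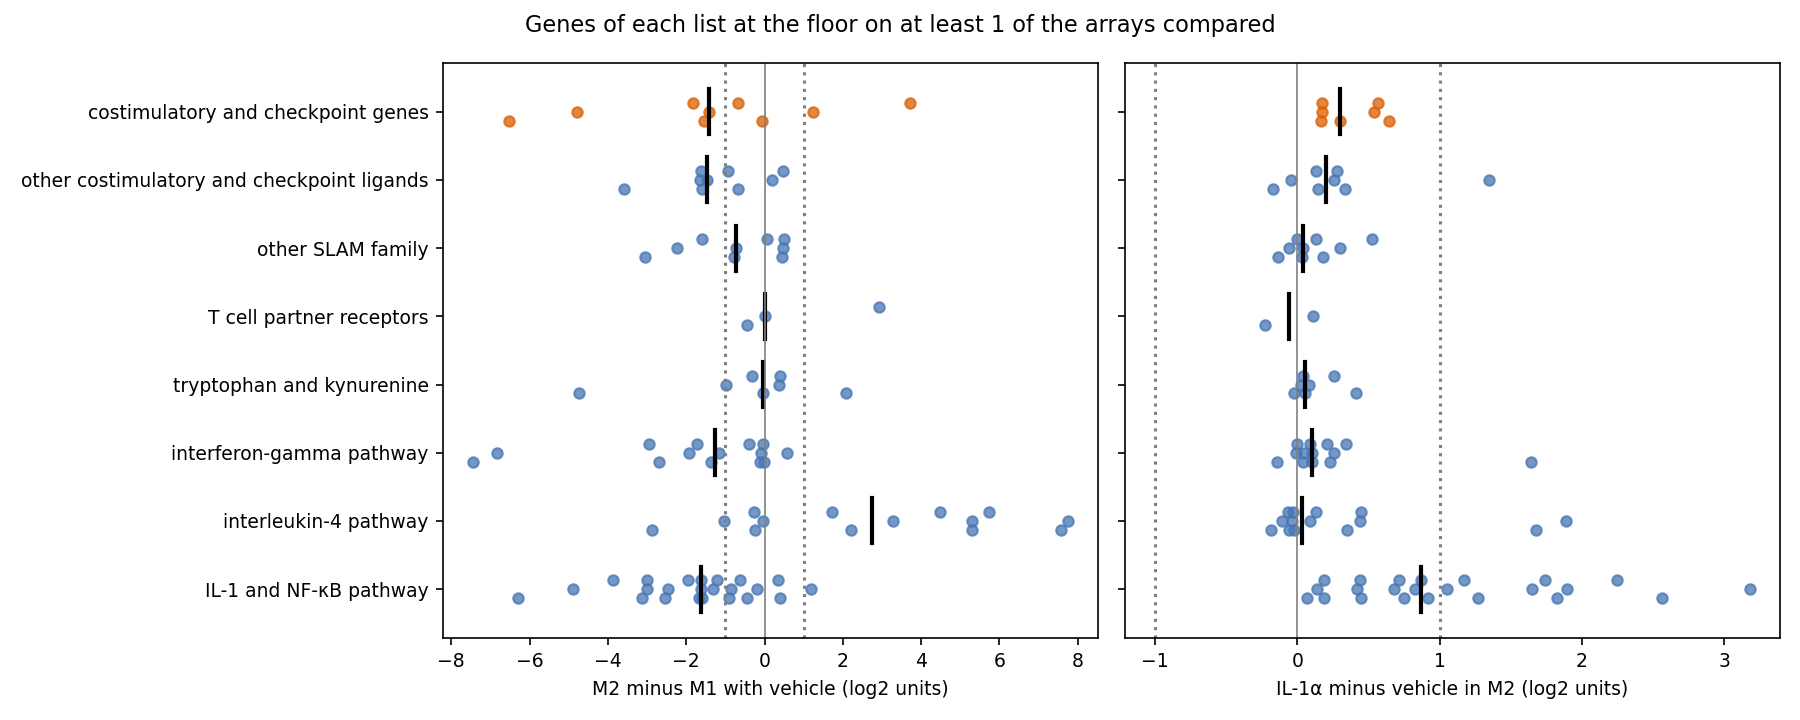
Difference of each gene in log2 units (x axes), M2 minus M1 with vehicle on the left and IL-1α minus vehicle in M2 on the right, for the 10 genes (orange) and 7 fixed lists (blue). Points are genes at the floor on an array compared, black bars are list medians and dotted lines mark 2-fold; on the right the IL-1 and NF-κB list has a median of 0.87 and the 10 genes, of which 7 are drawn, a median of 0.30.

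The lists of the polarising pathways give the setting of these values. Of 14 IFN-γ pathway genes, 0 were higher and 8 lower in M2 with vehicle, among them Cxcl9 (at least 74.7-fold lower) and Nlrc5 (-2.94). Of 14 IL-4 pathway genes, 9 were higher, among them Mrc1 (5.31) and Retnla (at least 33.1-fold higher). The 2 lower were the receptor genes Il13ra1 (-2.88) and Il4ra (-1.05). Among all genes tested with vehicle, 7.03% were higher and 6.83% lower. Gbp2, Jak3, Il1r1 and Nfkb1 had no probe set with 1 gene and were not analysed here.

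Some markers of other cell types also moved with the phenotype. Of 10 dendritic cell markers, 2 were at the floor on each M2 array and 5 on each M1 array, and their mean was 7.48 (M2 IL-1α) and 7.54 (M2 vehicle), against 7.99 (M1 IL-1α) and 8.05 (M1 vehicle). With vehicle, Clec9a, Xcr1, Ccr7 and Ly75 were above the floor in M1 and below it in M2. Zbtb46 went the other way (7.94 in M2 and 7.46 in M1), and Itgax (2.98) was higher in M2. Flt3, Siglech, Itgae and Cd209a were below the floor on all 4 arrays. Of 8 neutrophil markers, 5 were at the floor on each M2 array and 0 on each M1 array. Ngp read 9.92 on the M2 vehicle array. There S100a8 (7.81), S100a9 (7.86), Mpo (7.91) and Ltf (8.04) lay close to the floor of 7.617, so their count may reflect the cut. Of 6 NK cell markers, Klrk1 alone reached the floor, on the M1 arrays. Of 4 B cell markers, Cd79b alone reached it, on all 4 arrays. The part of such cells in the differences of the 10 genes was not tested. Of 9 macrophage markers, 8 were at the floor on each M2 array and all 9 on each M1 array. With IL-1α 0 of the 9 were 2-fold higher and 4 lower in M2, and with vehicle 0 were higher and 3 lower. The 3 were Aif1 (at least 9.92-fold lower, with M2 vehicle below the floor), Fcgr1 (-3.06) and Cd14 (-2.33). With vehicle 4 of the 9 lay above 0, namely Csf1r (0.56), Cd68 (0.39), Lyz2 (0.38) and Itgam (0.08). The mean of the 9 markers was 11.66 on both M2 arrays, against 12.69 (M1 IL-1α) and 12.67 (M1 vehicle).

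The response to IL-1α, the comparison named in the study design, stayed under 2-fold in the genes at the floor on an array of the pair. In M2, 0 of the 7 genes at the floor on an M2 array differed by 2-fold, against 0.350% of 10284 genes higher and 0% lower. All 7 lay above 0, with a median of 0.30, where 69.3% of all genes lay above 0 with a median of 0.05, and without the floor 9 of the 10 genes lay above 0. The largest were Slamf1 (0.65, 68th highest of 10284 genes), Cd83 (0.56, 96th) and Icosl (0.54, 107th). Icosl crossed the floor, with 7.92 on the M2 IL-1α array against 7.38 on the M2 vehicle array, a difference of 0.54 that is at least 0.30 counting from the floor.

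The other 4 were Cd80 (0.30, 505th highest), Havcr2 (0.17), Cd274 (0.17) and Pdcd1lg2 (0.16). The PD-1 ligands thus differed by less than the 0.18 that is 1 standard deviation over all genes of the M2 pair. Cd69 (1.06), Cd86 (0.38) and Ido1 (-0.16) were below the floor on both M2 arrays, so the 2.08-fold difference of Cd69 was not called and its size is uncertain. Kynu likewise differed by 1.07 with both M2 arrays under the floor.

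In M1, 0 of the 8 genes at the floor differed by 2-fold, as did 0% of all 10012 genes in either direction. Their median was -0.02, with 4 above 0 and 4 below. The lowest were Slamf1 (-0.31, 87th lowest of 10012 genes), Havcr2 (-0.26, 167th) and Cd83 (-0.20, 435th), and the highest was Icosl (0.14). Cd86 (-0.05), Cd69 (0.05), Cd80 (0.04) and Cd274 (0.01) lay within the 0.11 that is 1 standard deviation over all genes of the M1 pair.

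**Figure D4:**
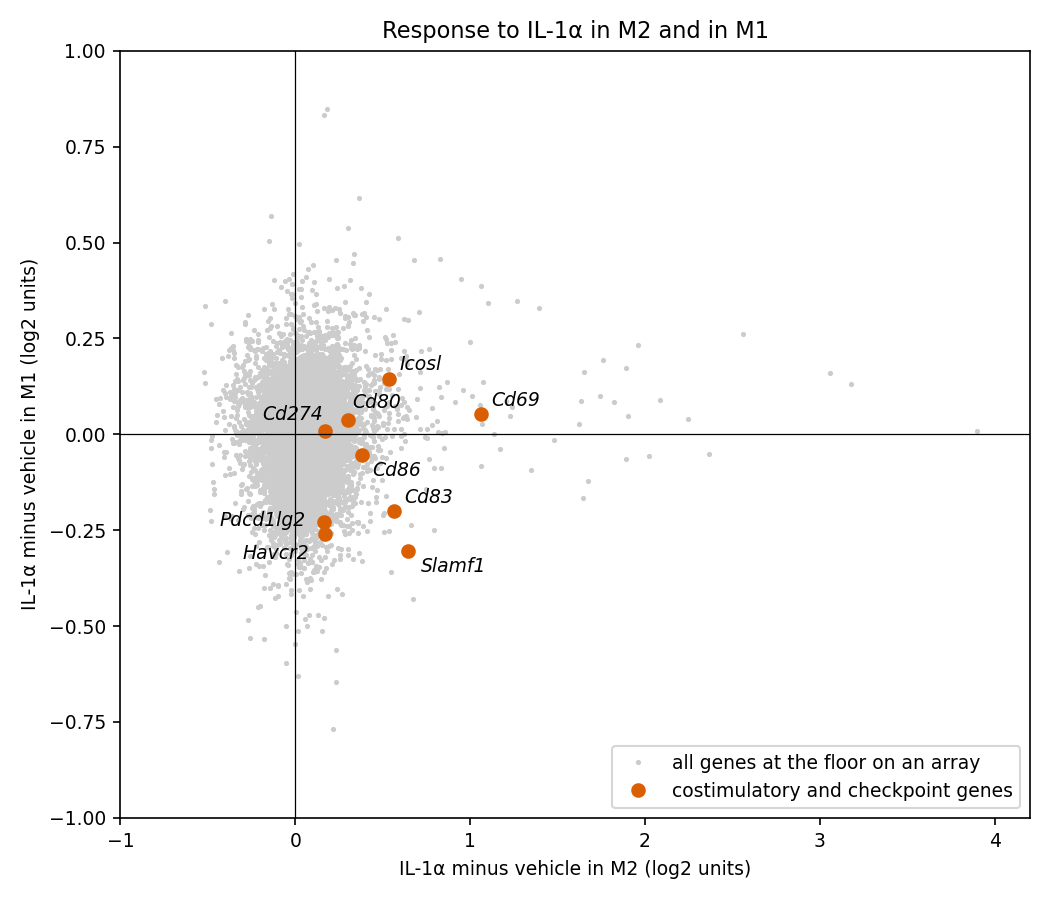
IL-1α minus vehicle in M2 (x axis) against IL-1α minus vehicle in M1 (y axis), both in log2 units, for all 10625 genes at the floor on an array (grey) and the 9 of the 10 genes among them (orange). Slamf1 (0.65 in M2 and -0.31 in M1) and Cd83 (0.56 and -0.20) lie to the lower right, and Cd69 (1.06 and 0.05) rests on M2 values below the floor.

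In 6 of the 9 genes both pairs reached the floor, and their M2 response minus their M1 response ran from 0.16 to 0.95 with a median of 0.41. Cd86 and Cd69 in M2 and Pdcd1lg2 in M1 were below the floor on both arrays of a pair, and their values (0.43, 1.01 and 0.39) are uncertain. Of all genes, 66.1% of 10625 lay above 0 with a median of 0.06. Ido1, below the floor, was at 0.07. The difference of responses reached 2-fold in 1 of the 9, Cd69 (1.01), against 0.320% of all genes, and that value rests on 2 M2 arrays below the floor. Slamf1 followed with 0.95, the 37th highest of 10625 genes, and Cd83 with 0.76, the 57th highest. Cd274 had the smallest of the 6, at 0.16. With 4 arrays this contrast has no test.

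The additive limma model called 0 of the 9 genes for a shared IL-1α effect, as it called 0% of all genes, with limma adjusted p from 0.561 to 1. At an unadjusted p under 0.05 limma had 646 of the 10625 genes. Of the 9 genes, 2 had such a p, Icosl (0.34 ± 0.11 SE) and Cd69, whose M2 signals were below the floor. Where the measured responses of a gene differ between the phenotypes, as for Slamf1 and Cd83 (untested), that difference enters the error of this model.

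In the same arrays, 10 of 23 genes of the IL-1 and NF-κB list passed 2-fold upward with IL-1α in M2, and 0 of 23 in M1. Among the 10 were Cxcl2 (at least 2.28 log2 units counting from the floor) and Il1b (at least 1.79 log2 units). Traf1 and Vcam1 passed only through a vehicle signal below the floor. Counting from it they were at least 0.30 and 0.87 log2 units higher, under 2-fold. Of the other costimulatory and checkpoint genes, 1 of 8 at the floor in M2 was higher, Cd40, with 10.61 on the M2 IL-1α array and 9.26 on the M2 vehicle array. Of the SLAM list, 0 of 9 were 2-fold higher in M2, with Slamf8 at 0.30. Slamf6 read 7.66 with IL-1α and 7.13, below the floor, with vehicle, a difference of at least 0.04 log2 units counting from the floor.

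The genes nearest to each of the 9 in pattern were found by Euclidean distance between the 4 values after centring each gene on its own mean, over 10118 genes. Cd274 was nearest to Glrx (0.03), Ptpn6 (0.05) and Ptk2b (0.05), and Pdcd1lg2 to Rhoj (0.12), Gask1b (0.13) and Scd1 (0.15). Cd80 was nearest to Nectin2 (0.03), Mapkapk2 and Kansl2, and Cd86 to the interferon-stimulated Mx1 (0.18), Slc6a19 and Slco3a1. Cd69 had more distant neighbours in Ifit2 (0.39), the chemokine gene Cxcl10 (0.45) and Ifi213 (0.48), where members of the Ifit and Ifi200 families can cross-hybridise. Cd83 was nearest to Nckap1 (0.11), Ext1 and Osgin1, and Slamf1 to Pde12 (0.14), Arap2 and Zbtb10. Icosl was nearest to Car13 (0.09), Rnd3 and Bcl2a1c, and Havcr2 to Adap1 (0.12), Gstt4 and Adar. These distances describe 4 arrays and carry no test.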

How the data were processed

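Sense-strand DNA was made from the total RNA of 4 cultures and, carrying biotin, hybridised to single-colour arrays, per the labels' protocols. The authors deposited log2 signals per probe set, which per the submitters' processing notes came from Affymetrix Expression Console and RMA. Versions, settings and the log base were not given in the sources used, and the base was inferred from the range of the values. In general, RMA sets arrays to a common distribution and compresses differences among dim probe sets.

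Of 35556 probe sets, the 21789 with 1 gene in GEO's platform annotation were used, 1621 with several genes and 12146 with none were not. Symbols were updated through Entrez numbers to RefSeq of GRCm38.p6 (21698 matched) and probe sets were averaged per gene, which gave 19938 genes. The floor was their median over the 4 arrays. A difference was called at 2-fold where an array compared reached the floor. limma 3.58.1 in R 4.3.3 (lmFit, eBayes with a trend; phenotype and treatment additive) was fitted to the 10625 genes at the floor on an array, with Benjamini-Hochberg adjustment over all of them and a threshold of 0.05. It has 1 residual degree of freedom and 10.05 from the prior. The limma phenotype call and the 2-fold call with vehicle were tried on simulated data, and the other steps were not. The simulation was additive, with 1 noise level taken from the M1 pair, so it did not cover responses that differ between phenotypes.

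The 10 genes and the 13 other lists (158 symbols, 150 measured with 1 gene per probe set) were chosen with earlier results of these data known. Named genes were the 10 genes, up to 4 per list by phenotype difference and 2 by the IL-1α difference in M2, and the 3 genes most like each of the 10. The result of 1 promoter motif is not reported here. Other genes named were chosen after their values were seen. Tried in place of these settings were 1.5-fold, the 75th percentile as floor or none, centring by loess, quantile normalisation once more, a gene's brightest probe set, and eBayes robust or with no trend.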

Additional observations from a re-analysis of the deposited data

Results flagged for a closer look

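In 4 of the 9 genes at the floor, IL-1α minus vehicle had opposite signs in M2 and M1, each larger than 0.11, the standard deviation over all genes of the M1 pair. This was so in 5.95% of the 10625 genes at the floor. The M2 response minus the M1 response was 0.95 for Slamf1 (0.65 in M2 and -0.31 in M1), 0.76 for Cd83 (0.56 and -0.20), 0.43 for Havcr2 (0.17 and -0.26) and 0.39 for Pdcd1lg2 (0.16 and -0.23). Both M1 values of Pdcd1lg2 were below the floor, and the M2 values of Havcr2 and Pdcd1lg2 were under 0.18, the standard deviation of the M2 pair, which left 2 genes beyond the spread of each pair. With 1 array per group these differences were not tested.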

How the results depend on the processing

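The counts of genes past 2-fold between M2 and M1 stayed within 1.5 times the reported 7 under the 6 alternatives. They ran from 6 to 8 with IL-1α and from 6 to 8 with vehicle. For IL-1α in M2, 1 gene passed at 1.5-fold (Slamf1) and 1 without a floor (Cd69), against 0 as reported. For the difference of the responses, 3 genes passed at 1.5-fold, against 1. Shares of all genes at 1.5-fold or at the other floors are not given here, so these counts have no background beside them. The limma phenotype effect had 7 to 9 genes under its 7 alternatives, against 8. Of all 19938 genes without a floor, it called 3731 higher and 3225 lower. Of 5801 genes with the floor at the 75th percentile, 2230 were higher and 2100 lower. Having no floor added Ido1, robust eBayes lost Slamf1, and the floor at the 75th percentile left Icosl untested and called Cd83, as the further quantile normalisation also did. The limma IL-1α effect had 0 under all 7. Of 150 differences under loess centring, quantile normalisation or the brightest probe set, the largest shift was 0.15 (Cd274 with IL-1α under loess centring), and 1 changed sign, that of Cd83 with vehicle. Leaving out an array would remove a group. No paired analysis was possible because each group holds 1 array and the labels give no replicate numbers. Signals under the floor limit the sizes for Cd86, Cd69, Icosl, Pdcd1lg2 and Ido1.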
